A study of Homo sapiens with 12 samples.

Results

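A set of 10 canonical genes of microglial and myeloid identity were followed in HMC3, an immortalized human cell line from a commercial cell bank that the study used as its model of microglia. The 10 genes, fixed by name, were AIF1, CX3CR1, P2RY12, TMEM119, CSF1R, ITGAM, PTPRC, SPI1, TREM2 and C1QA, out of 36315 genes with a transcript in the tables. HMC3 cells received a negative control siRNA or ephrin-B1 siRNA for 48 h and were then exposed for 24 h to 2 ug/mL of a pre-clustered Fc protein. This gave 4 groups of 3 libraries: Ctrl (negative control siRNA, Ctrl-Fc), EphB2 (negative control siRNA, EphB2-Fc), ephrin-B1 siRNA (with Ctrl-Fc) and EphB2 + ephrin-B1 siRNA (with EphB2-Fc). Every group, Ctrl included, was therefore transfected and exposed to an Fc protein, and all cells came from a single line.

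Microglia are the resident macrophages of the brain. Their lineage depends on the transcription factor PU.1 (SPI1) and on signaling through the CSF1 receptor (CSF1R), and in the healthy brain they carry surface proteins such as P2RY12, TMEM119 and CX3CR1 that are used to tell them from other cells. AIF1 encodes Iba1, the protein stained to see microglia in tissue, PTPRC encodes the leukocyte antigen CD45, ITGAM encodes CD11b, TREM2 is a lipid-sensing receptor and C1QA is a subunit of the first complement component.

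The libraries held 13230689 to 25785591 estimated counts, with a median of 18694233. A total of 3 counts, the upper limit that a count of 0 allows, corresponded to 0.116 to 0.227 CPM (counts scaled to library size) in the individual libraries. Such limits cover counting error only. The siRNA target EFNB1, which encodes ephrin-B1, followed the labels: it stood at 19.1 ± 1.51 CPM in Ctrl, 17.6 ± 1.73 in EphB2, 7.47 ± 1.1 in ephrin-B1 siRNA and 6.32 ± 0.272 in EphB2 + ephrin-B1 siRNA (SD, n = 3). It fell by 1.35 on the log2 scale with the siRNA alone (SE 0.129, adjusted p = 0.00124, edgeR quasi-likelihood test with Benjamini-Hochberg adjustment) and by 1.47 when EphB2 was present in both groups (SE 0.131, adjusted p = 0.00189).

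None of the 10 markers was abundant. Averaged over the 12 libraries in TPM, a scale corrected for transcript length, CSF1R stood at 2.13 ± 0.456 and TMEM119 at 1.26 ± 0.525, and the other 8 were below 1 TPM (SD, n = 12). TREM2 followed at 0.714 ± 0.408, PTPRC at 0.517 ± 0.211 and ITGAM at 0.171 ± 0.232 TPM. SPI1 (0.0617 TPM), P2RY12 (0.0576), AIF1 (0.0344), C1QA (0.00684) and CX3CR1 (0.00612) were at the lower end. The ranges over libraries overlapped for every pair of neighbours in this order. CSF1R nevertheless lay above TMEM119 in 11 of 12 libraries and PTPRC above ITGAM in 11 of 12, whereas TMEM119 lay above TREM2 in only 8 of 12.

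For scale, the median protein-coding gene had 6.34 TPM, and 65.8% of the 19903 protein-coding genes reached 1 TPM. Among those genes CSF1R was at the 39.9 percentile, TMEM119 at 36.0, TREM2 at 31.5 and PTPRC at 29.0. SPI1 was at the 14.7 percentile and CX3CR1 at 5.3. By group, the number of markers with a mean of 1 TPM or more was 1 in Ctrl (CSF1R), 2 in EphB2 (CSF1R and TMEM119), 3 in ephrin-B1 siRNA (TREM2 in addition) and 2 in EphB2 + ephrin-B1 siRNA. These counts turn on values close to the threshold. TMEM119 averaged 0.885 ± 0.135 TPM in Ctrl and 1.06 ± 0.236 in ephrin-B1 siRNA, and with TPM recomputed without transcripts shorter than 200 bases Ctrl reached 2 and EphB2 3, while the other groups stayed at 3 and 2.

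**Figure D1:**
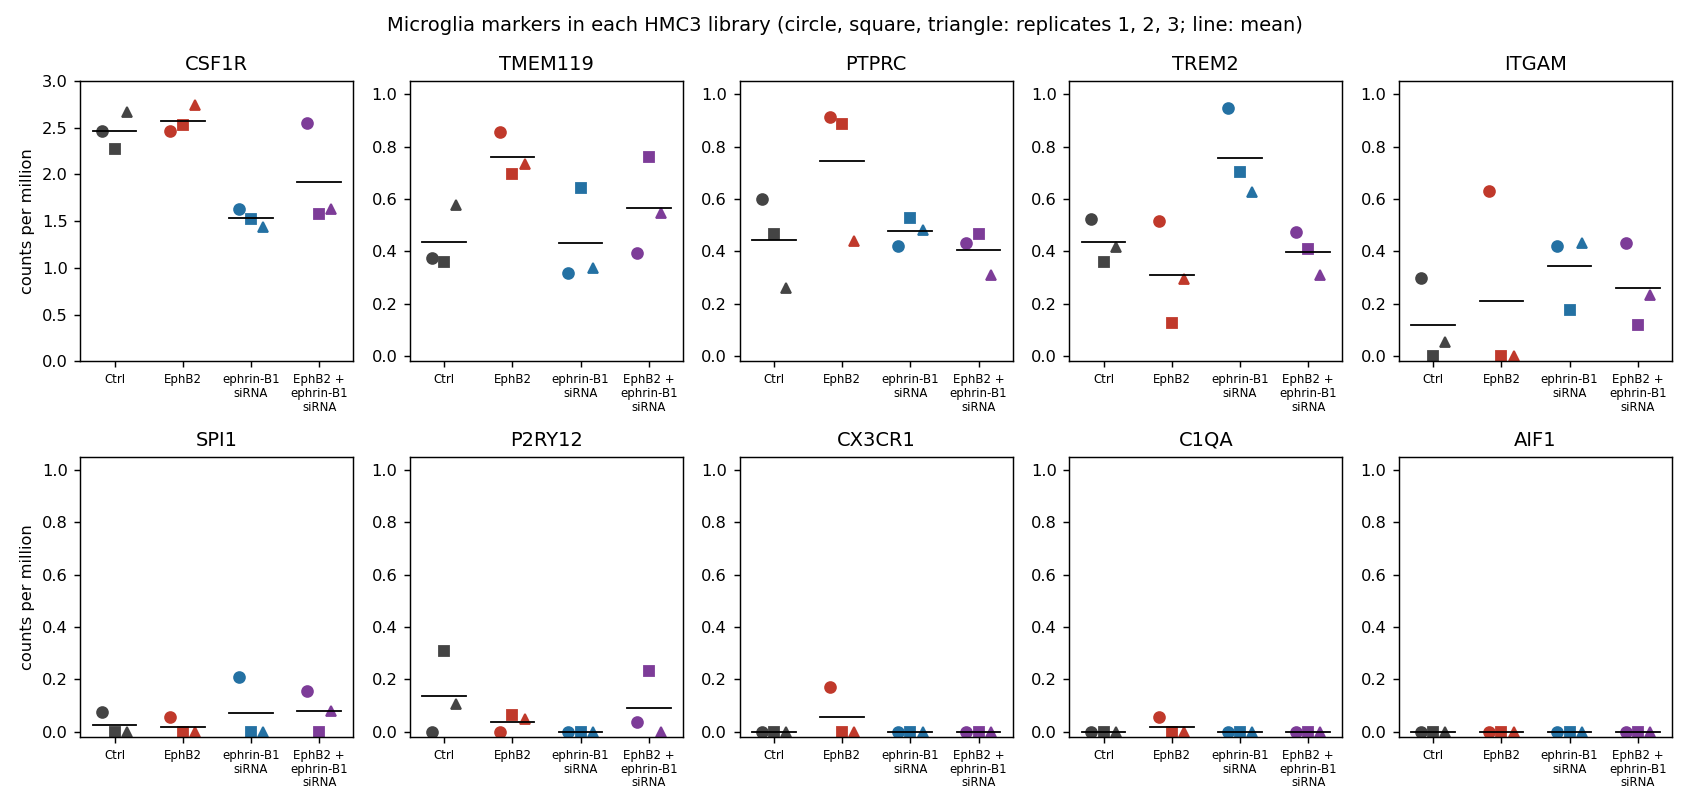
Each panel plots 1 marker in CPM for the 12 libraries, by group, with circles, squares and triangles for replicates 1, 2 and 3 and a line at the mean of the 3. The CSF1R panel runs to 3 and the others to about 1; the lower row lies at or near 0 in almost every library.

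AIF1, CX3CR1 and C1QA were at or close to zero throughout. AIF1 (chr6:31615217-31617021, GRCh38, plus strand) rounded to 0 counts in all 12 libraries, with fractional estimates of at most 0.5. The gene lies in the major histocompatibility region, whose alternate-haplotype transcripts were left out here, so its level is uncertain. CX3CR1, the fractalkine receptor (chr3:39263495-39281735, minus strand), had 3 counts in EphB2 replicate 1 and 0 in the other 11 libraries. C1QA (chr1:22635077-22639678, plus strand) had 1 count, in that same library, and shares 51.3% of the 31-base words of its transcript with an overlapping protein-coding gene model. The genes for the other chains of C1q gave no more: C1QB had 0 counts and C1QC 1 count in 12 libraries together.

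P2RY12 and SPI1 were detected in some libraries only. P2RY12, a purinergic receptor of homeostatic microglia (chr3:151336843-151384753, minus strand, inside MED12L), had 0, 6 and 2 counts in Ctrl, 0, 1 and 1 in EphB2, 0, 0 and 0 in ephrin-B1 siRNA and 1, 4 and 0 in EphB2 + ephrin-B1 siRNA, in the order of replicates 1 to 3. SPI1 (chr11:47354860-47378547, minus strand) had 1, 0 and 0 counts in Ctrl, 1, 0 and 0 in EphB2, 4, 0 and 0 in ephrin-B1 siRNA and 4, 0 and 1 in EphB2 + ephrin-B1 siRNA. Replicate 2 had no SPI1 count in any group, while replicate 1 had at least 1 in every group. At such counts no fold between groups is read from the fit.

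ITGAM (chr16:31259967-31332892, plus strand) had 4, 0 and 1 counts in Ctrl, 11, 0 and 0 in EphB2, 8, 3 and 9 in ephrin-B1 siRNA and 11, 2 and 3 in EphB2 + ephrin-B1 siRNA. The groups overlapped in all 4 comparisons. The remaining 4 markers had counts in each of the 12 libraries, CSF1R with 467 in total, TMEM119 with 118, PTPRC with 111 and TREM2 with 105.

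For the best counted markers the transcripts behind the counts were examined, since the tables list each transcript separately. PTPRC (chr1:198638457-198757476, plus strand) had 107.7 of its estimated counts, or 96.4%, on a short transcript, PTPRC-206, of 1338 bases and 4 exons. This transcript ends in an exon of 1154 bases at chr1:198694018-198695171, which lies in an intron of PTPRC-201, and 1031 of its bases occur in no other PTPRC transcript. PTPRC-201, with 30 exons, had 4.0 estimated counts in all, at most 1.0 in any library. The junctions that set these transcripts apart are shown as the last 15 bases of the shared exon in lower case and the first 15 of the following exon in capitals, from the GRCh38 genome:
PTPRC-206: caccttcccccactgGCCATCTGCAAGCTG
PTPRC-201: caccttcccccactgATGCCTACCTTAATG
The PTPRC-206 junction joins chr1:198692359-198692373 to chr1:198694018-198694032, and the PTPRC-201 junction joins the same end to chr1:198703298-198703312. The PTPRC values given here are thus almost wholly values of PTPRC-206, which lacks most of the exons of the longer form.

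CSF1R, the receptor for CSF1 and IL-34 (chr5:150053291-150113372, minus strand), was spread over several kinds of transcript. Protein-coding transcripts took 43.6% of its counts, retained-intron transcripts 32.1% and transcripts annotated for nonsense-mediated decay 21.8%. The coding transcript CSF1R-201, with 22 exons, held 42.5% and reached 1 count in 9 of 12 libraries. The retained-intron transcript CSF1R-204 held 30.1% and was counted in all 12. On protein-coding transcripts alone, CSF1R averaged 0.55 TPM in Ctrl, 0.4 in EphB2, 0.221 in ephrin-B1 siRNA and 0.245 in EphB2 + ephrin-B1 siRNA, below 1 TPM in every group. CSF1R-204 keeps 390 bases of the intron upstream of the next to last exon of CSF1R-201. Its boundary with that exon is shown with the 15 retained intron bases in capitals, beside the spliced junction of CSF1R-201 with the 15 bases of the preceding exon in capitals:
CSF1R-204: TGTCCTATCTCCCAGatacagcatcatgca
CSF1R-201: TGCCCCAAAGAATATatacagcatcatgca
On the minus strand the shared exon begins at chr5:150054416-150054430, the intron bases are chr5:150054431-150054445 and the exon bases of the spliced form are chr5:150055237-150055251.

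TMEM119, a membrane protein used to tell microglia from blood-derived macrophages (chr12:108589851-108598320, minus strand), had 66.0% of its counts on TMEM119-204, a coding transcript of 567 bases, and 32.9% on the longer TMEM119-201. On its Ensembl canonical transcript alone it averaged 0.0755 TPM in Ctrl, 0.0903 in EphB2, 0.0755 in ephrin-B1 siRNA and 0.0856 in EphB2 + ephrin-B1 siRNA. The TMEM119 level in TPM thus rests mostly on the short TMEM119-204, which shares 11.5% of its 31-base words with other genes. TREM2 (chr6:41158506-41163186, minus strand) had 85% on TREM2-202, a coding transcript of 1044 bases. ITGAM had 53.9% on ITGAM-201 and 29.3% on ITGAM-208, which are nearly the same in length. Of the rarer markers, P2RY12 had 74.4% of its counts on P2RY12-201, of whose bases 220 lie in exons of MED12L. The strand setting of the quantification is not given in the sources used here, so reads of the 2 genes in that stretch cannot be told apart.

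**Figure D2:**
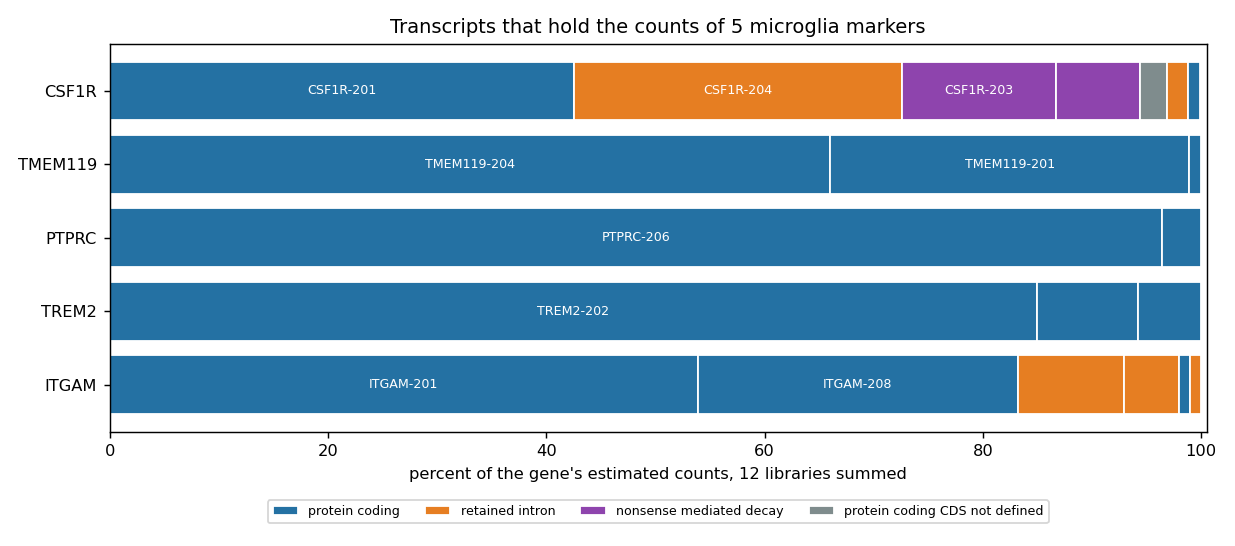
Bars show the percent of each gene's estimated counts, summed over 12 libraries, that fell on each transcript, coloured by the annotated kind of transcript; names are printed for shares of 10% or more. PTPRC rests on a single transcript with 96.4%, while CSF1R has 32.1% on retained-intron transcripts.

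The question put to these markers by the design was whether EphB2-Fc, which engages ephrin-B proteins and starts reverse signaling, or the loss of ephrin-B1 changed their level. Of the 10, 7 had at least 10 counts over the 12 libraries and entered the test; AIF1, CX3CR1 and C1QA did not. No marker passed an adjusted p of 0.05 in edgeR's quasi-likelihood test in any of the 4 comparisons or in the interaction, which asks whether the EphB2 response differed with ephrin-B1 siRNA. The background of genes called was 0.037% of 21601 genes for EphB2 vs Ctrl, 1.81% for ephrin-B1 siRNA vs Ctrl, 0.116% for EphB2 + ephrin-B1 siRNA against ephrin-B1 siRNA alone, 0.616% for EphB2 + ephrin-B1 siRNA vs EphB2 and 0.0% for the interaction. limma on TPM also called 0, of 5 markers tested with its filter and 10 without. On deposited TPM, however, it called only 0 to 8 of all genes in any comparison and did not call EFNB1. Its 0 therefore says little about the markers. DESeq2 gave no adjusted p for any of the 7 markers in the 4 comparisons, so it made no call there, and its smallest unadjusted p was 0.0173, for CSF1R with ephrin-B1 siRNA. At an unadjusted p under 0.05, edgeR without a block gave 0 markers in each comparison but ephrin-B1 siRNA vs Ctrl, with 2 (CSF1R and P2RY12), and the interaction, with 1 (P2RY12). The share of all genes below that unadjusted p was 7.56%, 12.1%, 8.46%, 10.4% and 2.31% in the same order as above. With the replicate number as a block, 1 of 7 markers passed for ephrin-B1 siRNA vs Ctrl (CSF1R), beside 13.6% of all genes, a share close to that of the markers. None of the 7 passed in the interaction, beside 0.00463% of genes. At an unadjusted p under 0.05 the blocked edgeR fit gave 0, 2, 2, 0 and 1 of the 7 markers, in the order above. Of all 21601 genes it gave 3956, 5335, 4363, 4777 and 1448.

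The CPM values of the 3 libraries of each group were also compared for overlap. TMEM119 was higher without overlap in EphB2 than in Ctrl (6.62% of all tested genes were), and 0 markers were lower (5.93%). With ephrin-B1 siRNA against Ctrl, TREM2 was higher (9.16%) and CSF1R lower (8.89%). In EphB2 + ephrin-B1 siRNA against ephrin-B1 siRNA alone, 0 were higher (7.26%) and TREM2 was lower (7.31%). Against EphB2, 0 were higher (6.89%) and 0 lower (7.65%). In bulk RNA, fewer cells with a transcript and less of it per cell cannot be told apart.

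CSF1R was the marker nearest to a call. Its values were 2.47, 2.27 and 2.67 CPM in Ctrl, 2.46, 2.53 and 2.74 in EphB2, 1.63, 1.52 and 1.44 in ephrin-B1 siRNA and 2.55, 1.58 and 1.63 in EphB2 + ephrin-B1 siRNA. All 3 ephrin-B1 siRNA libraries were below all 3 Ctrl libraries, and therefore also within each replicate number. The fitted log2 fold change was -0.69 (SE 0.217, adjusted p = 0.174, edgeR). With the replicate number as a block it was -0.70 (SE 0.217) and the adjusted p became 0.0481, beside a background of 13.6% of genes called in that blocked fit. Without replicate 3 the blocked value was -0.60 with an adjusted p of 0.338 by edgeR.

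When EphB2 was present in both groups, CSF1R differed by -0.40 (SE 0.213, adjusted p = 0.584, edgeR), and the groups overlapped because replicate 1 of EphB2 + ephrin-B1 siRNA was as high as the EphB2 libraries. EphB2 alone left CSF1R at 2.57 ± 0.145 CPM against 2.47 ± 0.197 in Ctrl (SD, n = 3), a log2 difference of 0.06 with an SE of 0.211.

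TREM2 moved the other way with the siRNA, without passing the test. Its counts were 7, 7 and 8 in Ctrl, 9, 2 and 6 in EphB2, 18, 12 and 13 in ephrin-B1 siRNA and 12, 7 and 4 in EphB2 + ephrin-B1 siRNA. The ephrin-B1 siRNA libraries, at 0.758 ± 0.168 CPM, were above every Ctrl library (0.435 ± 0.0827) and above every EphB2 + ephrin-B1 siRNA library (0.397 ± 0.0808; SD, n = 3). The log2 difference was 0.81 against Ctrl (SE 0.408, adjusted p = 0.474, edgeR), and that of EphB2 + ephrin-B1 siRNA from ephrin-B1 siRNA was -0.89 (SE 0.407, adjusted p = 0.586, edgeR).

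TMEM119 had 5, 7 and 11 counts in Ctrl, 15, 11 and 15 in EphB2, 6, 11 and 7 in ephrin-B1 siRNA and 10, 13 and 7 in EphB2 + ephrin-B1 siRNA. In CPM the EphB2 group, at 0.762 ± 0.0847, lay above Ctrl at 0.437 ± 0.12 without overlap. The log2 difference of 0.78 did not pass the test (SE 0.38, adjusted p = 0.684, edgeR). PTPRC showed a similar size, 0.76 (SE 0.392, adjusted p = 0.719, edgeR), higher in EphB2 in 3 of 3 replicate numbers but with overlapping groups of 8, 9 and 5 counts in Ctrl and 16, 14 and 9 in EphB2. With ephrin-B1 siRNA in both groups the same EphB2 comparison gave 0.38 for TMEM119 (SE 0.39) and -0.21 for PTPRC (SE 0.404). The interaction was -0.40 for TMEM119 and -0.97 for PTPRC, with an adjusted p of 1.0 for both by edgeR.

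**Figure D3:**
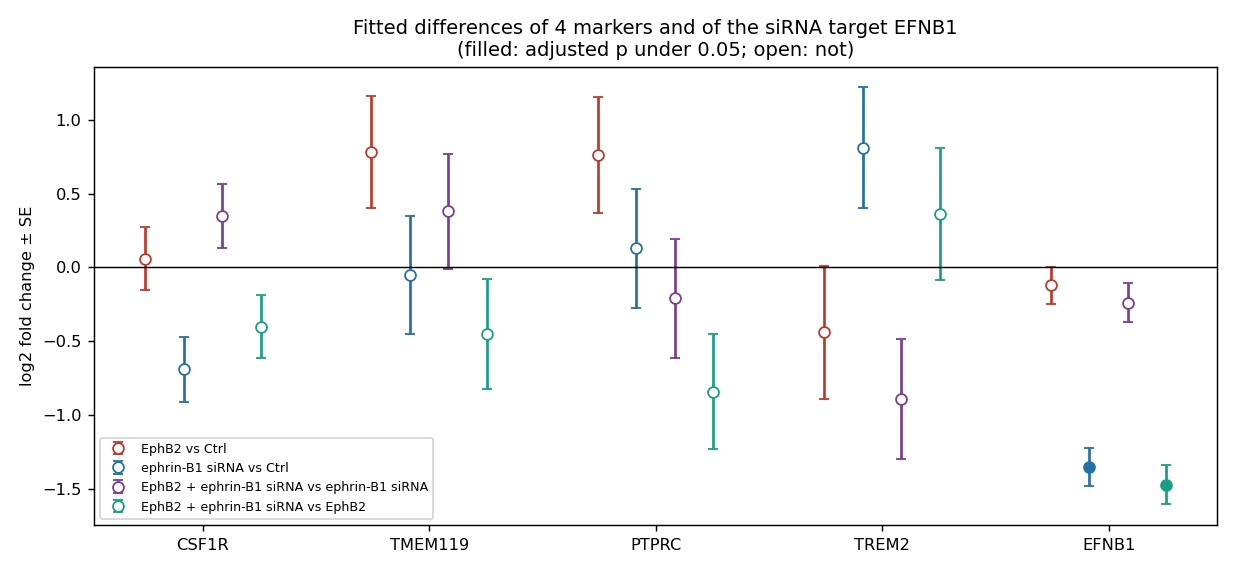
Points are log2 fold changes with their standard errors for 4 markers and the siRNA target EFNB1 in 4 comparisons (color), fitted with edgeR over 12 libraries. Only EFNB1 has filled points, in both comparisons of the siRNA, at -1.35 and -1.47.

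The partners and regulators of the markers were read from 5 lists of 84 genes in all, of which 72 were tested. Of the 27 partners, 18 reached 1 TPM. The CSF1R ligand CSF1 stood at 18.3 ± 6.45 TPM over the 12 libraries, whereas IL34, the other ligand, stood at 0.148 ± 0.135. TYROBP, the adaptor that TREM2 needs to signal, had 2 counts in all, and ITGB2, the integrin chain that pairs with ITGAM, had 2.33 ± 1.57 TPM. ADAM10, the protease that sheds CX3CL1 and TREM2, was at 112 ± 25 TPM, and the kinases FYN and CSK were at 32.3 ± 6.99 and 63.5 ± 12.4 (SD, n = 12). PLCG2 was listed at 903 TPM, but its counts lie on a transcript whose exons overlap the 7SK pseudogene RN7SKP176 and a long noncoding RNA, so this value cannot be assigned to PLCG2.

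Of the 13 myeloid transcription factors, 6 reached 1 TPM. The most abundant were CEBPB (74.9 ± 12.9 TPM), RUNX1 (49.9 ± 7.0), ZEB2 (32.7 ± 6.14) and MEF2A (27.4 ± 5.23), which many cell types share, while IRF8, which is confined largely to blood lineages, was at 0.0869 TPM. Of 16 other homeostatic microglia genes 9 reached 1 TPM, among them GAS6 (28.5 ± 3.77), TGFBR1 (23.4 ± 3.94) and PROS1 (4.74 ± 1.39). The lowest, given after their values were seen, were CD53 (0.104), VSIG4 (0.00844) and ADORA3 (0.0071). Of 12 disease-associated microglia genes 7 reached 1 TPM, led by the receptor tyrosine kinase AXL (374 ± 51.3), the cathepsins CTSB (226 ± 45.0) and CTSD (164 ± 22.5) and the tetraspanin CD9 (127 ± 55.4). Below 1 TPM in this list, also given after their values were seen, were CLEC7A (0.777), CST7 (0.654), GPNMB (0.459), SPP1 (0.147) and LPL (0.0402).

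Of 17 macrophage and phagocyte genes 9 reached 1 TPM. CD68, a lysosomal glycoprotein, was listed highest here at 25.6 ± 4.22 TPM, though its exons overlap a long noncoding RNA on each strand. CD68-201, with 83.9% of its counts, has all of its 1705 bases in exons of those RNAs. It shares 98.3% of its 31-base words with other genes, so the CD68 values cannot be assigned to CD68 alone. MSR1 stood at 6.01 ± 1.93, CD163 at 4.52 ± 2.12 and CD14 at 3.6 ± 2.86 (SD, n = 12). Of the CD163 counts 98% were on a transcript of 496 bases with no defined coding sequence. For scale, 65.8% of protein-coding genes reached 1 TPM. The share was 66.7% of the partners, 46.2% of the myeloid transcription factors and 56.2% of the other homeostatic genes. It was 58.3% of the disease-associated genes and 52.9% of the macrophage and phagocyte genes.

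Across these 72 genes, only CTSB passed the test, and only for ephrin-B1 siRNA vs Ctrl, where it fell by 0.46 on the log2 scale (SE 0.088, adjusted p = 0.0247, edgeR; lower in 3 of 3 replicate numbers). That is 1.39% of the list beside a background of 1.81%. The CTSB call was lost in 6 of 12 fits that left out 1 library, those without Ctrl replicate 1, 2 or 3, ephrin-B1 siRNA replicate 2 or 3, or EphB2 + ephrin-B1 siRNA replicate 3, with adjusted p up to 0.104. With the block CTSB was called in all 4 comparisons, at 0.18 (adjusted p = 0.0417, edgeR) for EphB2 vs Ctrl. In the other 3 comparisons and the interaction the count was 0 by edgeR. At an unadjusted p under 0.05 edgeR gave 8, 8, 6, 5 and 0 of the 72. The order is that used for the markers, from EphB2 vs Ctrl to the interaction. The shares of all genes were 7.56%, 12.1%, 8.46%, 10.4% and 2.31% in that order. The median log2 fold change of the 72 was 0.00726 in EphB2 vs Ctrl, beside 0.00696 over all genes, and 0.0119 in ephrin-B1 siRNA vs Ctrl, beside -0.00317.

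With the replicate number as a block more of the 72 were called. The count was 10 (6 higher, 4 lower) for EphB2 vs Ctrl, or 13.9% beside a background of 5.34%, and 12 (6 higher, 6 lower) for ephrin-B1 siRNA vs Ctrl, or 16.7% beside 13.6%. It was 11, or 15.3% beside 6.93%, for EphB2 + ephrin-B1 siRNA against ephrin-B1 siRNA alone and 7, or 9.72% beside 9.93%, for EphB2 + ephrin-B1 siRNA vs EphB2. Among the named genes, MEF2A (-0.18), TGFBR1 (-0.16), PROS1 (-0.70) and CSF1 (0.25) passed for EphB2 vs Ctrl, and RUNX1 (-0.18), ADAM10 (-0.18), TGFBR1 (-0.17) and GAS6 (-0.27) for ephrin-B1 siRNA vs Ctrl. CD68, whose counts cannot be told from those of the overlapping RNAs, was at 20.3, 28.4 and 24.6 CPM in Ctrl. In EphB2 CD68 was at 27.9, 43.2 and 38.9 CPM, higher in 3 of 3 replicate numbers. Its log2 fold change of 0.58 passed with the block (adjusted p = 0.00077, edgeR) and not without it (adjusted p = 0.402), nor with the block when replicate 3 was left out (0.52, adjusted p = 0.0718). CTSS, the lysosomal cathepsin of antigen presenting cells, was picked after its values were seen. It was at 3.45, 1.76 and 2.56 CPM in Ctrl and 9.31, 3.73 and 5.91 in EphB2, and its log2 fold change of 1.25 with the block had an adjusted p of 0.000253 by edgeR, against 0.533 for 1.30 without the block. With the block and without replicate 3 it was 1.26 (adjusted p = 0.0248, edgeR), the single call left among the other myeloid genes.

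Markers of other cell types were read in the same way to set the labelled cell type beside its alternatives. The 10 microglia markers summed to 3.71 to 7.16 TPM per library. The 10 mesenchymal and fibroblast markers summed to 4110 to 5590 TPM in Ctrl, 3730 to 4620 in EphB2, 4170 to 4440 in ephrin-B1 siRNA and 2870 to 3760 in EphB2 + ephrin-B1 siRNA. FN1, fibronectin, averaged 1710 TPM, VIM 1280, the collagen COL1A1 908 and THY1 244, and 8 of the 10 reached 1 TPM. FN1, VIM and COL1A1 make up most of the sum. The rest of this list, given after its values were seen, was far lower. TWIST1 had 18.7 TPM, COL1A2 12.7, PDGFRA 1.41, DCN 1.02, COL3A1 0.0388 and LUM 0.0171. Of 9 mural cell markers 8 reached 1 TPM, with TAGLN at 140 ± 15.2, PDGFRB at 89.8 ± 31.4, CSPG4 at 28.0 ± 11.1 and NOTCH3 at 23.6 ± 5.35 TPM (SD, n = 12). By these markers the labelled cell type had 2 of its 10 defining genes at 1 TPM or more.

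Of the other 6 lists, that of lymphocyte genes lay below the microglia markers, with a median of 0.0432 TPM against 0.116. At 1 TPM or more were 5 of 8 astrocyte genes (GJA1 46.0, SOX9 9.16, SLC1A3 7.8 and GFAP 7.76 TPM), 6 of 8 neuron genes (TUBB3 17.4, SNAP25 6.34, GAD1 4.84 and SYT1 2.04), 6 of 8 epithelial genes (KRT18 340, KRT8 50.5, CLDN4 4.09 and CDH1 3.85) and 3 of 8 oligodendrocyte genes (CNP 110, MBP 11.9 and SOX10 1.12). Endothelial genes reached it in 2 of 8 (TIE1 2.35, PECAM1 1.58, with CLDN5 0.839 and VWF 0.475) and lymphocyte genes in 1 of 8 (KLRD1 1.55, with CD79A 0.296, NKG7 0.239 and CD3D 0.0462). Of the GFAP counts, 61.2% were on retained-intron transcripts and 33.8% on coding ones. Among the 58 tested genes of these 8 lists, SLC1A3, a glutamate transporter, was the only gene past the test without the block, falling by 0.97 on the log2 scale with ephrin-B1 siRNA (SE 0.185, adjusted p = 0.0259, edgeR). That is 1.72% of the 58 beside a background of 1.81% of all genes.

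With the replicate block 13 of the 58 passed for ephrin-B1 siRNA vs Ctrl (3 higher, 10 lower), or 22.4% beside a background of 13.6%. Among them SOX9 fell by 1.65, GFAP by 0.56, MBP by 0.44, THY1 by 0.43, FN1 by 0.37, VIM by 0.29, GJA1 by 0.28, NOTCH3 by 0.24 and COL1A1 by 0.17 on the log2 scale, and SYT1 rose by 0.73 (adjusted p 3.3e-05 to 0.0237, edgeR). Of the mural cell genes called, 2 were higher and 1, NOTCH3, was lower. The higher ones, given after their values were seen, were ACTA2 (mean 10.2 CPM in Ctrl, 18.2 in ephrin-B1 siRNA) and KCNJ8 (15.9 and 19.4). For EphB2 vs Ctrl 5 passed, or 8.62% beside 5.34%, among them PDGFRB, which fell by 0.41, COL1A1, which fell by 0.34, and TAGLN, which rose by 0.27. The rest, given after their values were seen, were ABCC9 and COL1A2. ABCC9 was higher in EphB2 (mean 7.71 CPM against 4.5 in Ctrl) and COL1A2 was lower (29.6 against 56.7). The count was 6 (10.3% beside 6.93%) for EphB2 + ephrin-B1 siRNA against ephrin-B1 siRNA alone and 10 (17.2% beside 9.93%) against EphB2.

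**Figure D4:**
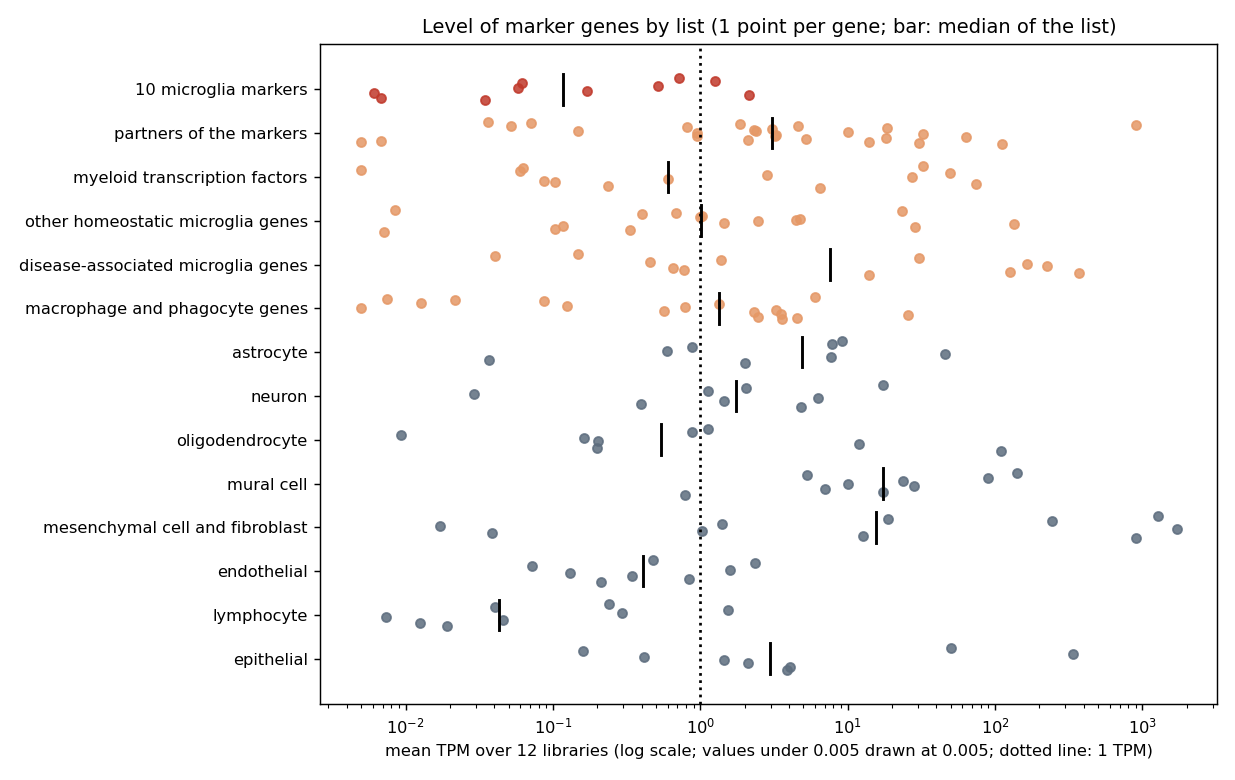
Each point is the mean TPM of 1 gene over 12 libraries on a log axis, by list, with a bar at the list's median and a dotted line at 1 TPM. The median of the 10 microglia markers is 0.116 TPM, that of the mural cell list 17.5 and that of the mesenchymal list 15.7.

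Libraries of replicates 1 and 2 each resembled those of the same number. Whether those of replicate 3 did so too could not be decided from the correlations used. Part of the spread of the rarest markers followed the replicate number. In the fit with the block, replicate 1 exceeded replicate 2 by 4.24 on the log2 scale for SPI1 (SE 1.447, adjusted p = 0.0403, edgeR) and by 2.67 for ITGAM (SE 0.85, adjusted p = 0.0234, edgeR). The SPI1 value rests on 10 counts in replicate 1 and 0 in replicate 2, so its size depends on the fit and is no estimate of a fold. In this comparison, which was added after the data were seen, 36.4% of all genes were called, as were 2 of the 7 tested markers and 31 of the 72 other myeloid genes (43.1%; 20 higher and 11 lower in replicate 1).

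The myeloid genes ITGB2, CD14 and LAPTM5, picked after their values were seen, showed the split in counts that are not near 0. ITGB2 was at 2.59 to 5.26 CPM in the 4 libraries of replicate 1, 0.409 to 1.45 in those of replicate 2 and 1.4 to 3.37 in those of replicate 3. CD14, the lipopolysaccharide co-receptor, was at 4.4 to 7.31, 0.526 to 1.96 and 1.81 to 5.12 CPM, and the lysosomal membrane protein LAPTM5 at 2.84 to 3.97, 1.17 to 1.4 and 1.76 to 2.61. In each of the 3 genes replicate 1 and replicate 2 did not overlap. CD68, with the overlap described above, went the other way, lower in replicate 1 by 0.44 on the log2 scale (adjusted p = 0.000113, edgeR). The part of the replicate number in the marker values was not tested beyond these fits.

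**Figure D5:**
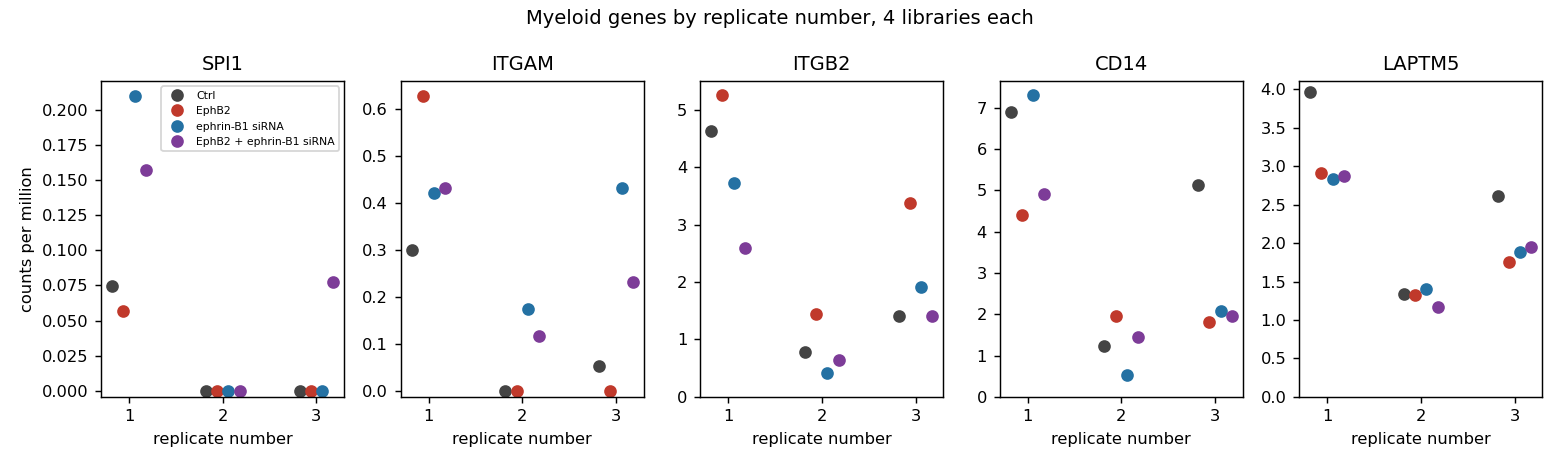
CPM values of SPI1, ITGAM, ITGB2, CD14 and LAPTM5 by replicate number, with 1 point per library colored by group. For ITGB2, CD14 and LAPTM5 all 4 libraries of replicate 1 lie above all 4 of replicate 2.

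CSF1R was the only marker with a mean of at least 1 CPM, 2.12, and so the only one for which genes of like pattern were sought. Over the 12 libraries the highest Pearson correlations of log2(CPM + 1) among 14271 genes were with STX3 (0.96), ZWILCH (0.94) and MMP15 (0.94). These are given as a description of 12 libraries that share groups and replicate numbers, picked as the extremes of many genes.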

How the data were processed

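RNA of 12 HMC3 cultures was sequenced after rRNA depletion (paired ends), and the authors quantified it with kallisto on the Ensembl release 109 cDNA of GRCh38; the version is not given in the sources used here. The deposited files hold, as the authors' kallisto run gave them, estimated counts and TPM for each of 188753 transcripts per library. A 152-base rRNA pseudogene transcript took 10.6 to 40.6% of a library's TPM, so deposited TPM values were used for levels and counts for comparisons.

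Transcripts were summed per gene through GENCODE 44 (GRCh38): 167067 (88.5%) paired with 36315 genes and held 95.25 to 95.98% of the counts. Estimated counts were rounded, genes with at least 10 counts over 12 libraries were kept (21601), and all 4 groups were fitted together with edgeR 4.0.16 (TMM, quasi-likelihood test, Benjamini-Hochberg) in R 4.3.3. SE is the fold change divided by the root of F. DESeq2 1.42.0 and limma 3.58.1 on log2(TPM + 1), with a mean of at least 0.1 TPM, or log2(TPM + 0.1) were alternatives, as were other filters, a replicate block and leaving out each library. Scripts were tested on simulated data.

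Replicate numbers came from the sample titles; the study calls them biological replicates. Deviations from group means correlated at 0.57 to 0.67 within replicate 1, 0.61 to 0.64 within replicate 2 and 0.01 to 0.18 within replicate 3 (14272 genes of at least 1 CPM), and submitted file names give libraries of a number the same experiment number. Blocked values are printed for the markers and counts whose call changes and for named genes called in the 2 comparisons with Ctrl. Deviations from a mean of 3 libraries cancel within each group, so a replicate lying between the others gives low correlations in any case. The correlations therefore cannot show whether replicate 3 is paired, and its pairing rests on the file names. The fit reported has no block because the study's methods name none.

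The markers and lists (5 myeloid, 8 of other cell types) were chosen with earlier results of these data known. Named were the 10 markers, EFNB1, CD68, of each list the genes called and the 4 of highest mean TPM, transcripts with at least 10% of a marker's counts, and the 3 genes most like a marker of at least 1 CPM; CSF1, IL34, TYROBP, ITGB2, IRF8, C1QB and C1QC were added as direct partners after their values were seen, and others are said to be picked later. CPM was normalized by TMM. Of the genes this rule names, 2 are not reported here.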

Additional observations from a re-analysis of the deposited data

Results flagged for a closer look

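Of 59 named genes looked at, 2 had EphB2 differences of opposite sign with and without ephrin-B1 siRNA in every replicate number, GFAP and MBP. The share of all genes with this pattern was not computed, so no response of these genes is read from it. For GFAP the interaction was 0.47 on the log2 scale (-0.33 without the siRNA and 0.14 with it), and for MBP it was 0.11 (-0.05 and 0.06). Both interactions had an adjusted p of 1.0 by edgeR, and neither gene is a microglia marker.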

How the results depend on the processing

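Under the alternatives run with edgeR and limma, 0 of the tested markers passed the threshold in any comparison, except CSF1R for ephrin-B1 siRNA vs Ctrl with the replicate block (1 marker called, log2 fold change -0.70). Leaving out each library gave 0 markers called in every comparison. For ephrin-B1 siRNA vs Ctrl, CSF1R then lay between -0.75 and -0.63 (adjusted p 0.0976 to 0.458, edgeR). DESeq2 gave the 7 markers no adjusted p in the 4 comparisons, so its 0 says nothing of stability. The 0 of limma on deposited TPM says little, since EFNB1 was not called there either. filterByExpr tested 4 markers instead of 7. The block raised the calls among the 72 other myeloid genes to 10, 12, 11 and 7 in the 4 comparisons, and to 1, 2, 1 and 1 without replicate 3. For ephrin-B1 siRNA vs Ctrl the count of 1 became 2 with filterByExpr or DESeq2, and 0 with the 2 groups alone or with limma on TPM in all 4 forms, including TPM without transcripts under 200 bases, which was chosen after seeing the data. Leaving out libraries gave 0 to 2. For EphB2 + ephrin-B1 siRNA vs EphB2, DESeq2 gave 1. The cause was not tested. Over all genes, calls ranged from 8 to 1153 for EphB2 vs Ctrl and from 391 to 2931 for ephrin-B1 siRNA vs Ctrl between the fits without and with the block, and DESeq2 gave 205 and 1008. The 2 groups alone gave 1 and 88, limma on deposited TPM 0 to 2 and 0 to 3, limma without short transcripts 2 and 71, and leaving out each library 0 to 15 and 75 to 409, so the background shares move with the fit.

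The number of markers at 1 TPM or more, 1 in Ctrl, 2 in EphB2, 3 with the siRNA and 2 with both, became 3, 3, 4 and 3 at 0.5 TPM and 5, 5, 6 and 5 at 0.1 TPM. With protein-coding transcripts only it was 0, 1, 2 and 1. Without short transcripts it was 2, 3, 3 and 2. With the Ensembl canonical transcript of each gene only it was 0 in Ctrl and EphB2, 1 with the siRNA and 0 with both. This last alternative was chosen after seeing the data, and quantification can divide reads among near-identical transcripts of a gene. Leaving out each library gave 1 in Ctrl, 2 in EphB2, 2 to 3 with the siRNA and 1 to 2 with both, with 1 when replicate 2 was left out.

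Differences near 0 changed sign. TMEM119 for ephrin-B1 siRNA vs Ctrl (-0.05) was 0.36 with the block without replicate 3, 0.12 and 0.22 with limma at the pseudocounts 1 and 0.1, 0.12 with limma without a filter and 0.05 without short transcripts. PTPRC in that comparison (0.13) was -0.16 with the block without replicate 3. For both treatments against the siRNA alone, ITGAM (-0.33) was 0.06 with limma, with and without a filter, and 0.14 without short transcripts, and SPI1 (0.26) was -0.37 with the block without replicate 3 and -0.04 with limma without a filter. The interactions of ITGAM (0.0), SPI1 (-0.02 in 2 fits) and EFNB1 (0.04) also changed sign. CTSB lost its call for ephrin-B1 siRNA vs Ctrl with the 2 groups alone (-0.46) and with limma (-0.24 and, without short transcripts, -0.39). With limma it was -0.02 for both treatments against the siRNA alone and -0.13 to -0.14 in the interaction, against 0.27 and 0.09. In the comparisons where it was not called it passed in 5 alternatives, among them DESeq2 for both treatments against EphB2 (-0.37). EFNB1 lost its call on deposited TPM with limma (-0.95 to -1.14 for ephrin-B1 siRNA vs Ctrl, -1.17 to -1.46 with EphB2 in both groups) and, for EphB2 + ephrin-B1 siRNA vs EphB2, with the 2 groups alone (-1.47). Leaving out each library, fitted values that crossed 0 were, for ITGAM, -3.98 to 2.71 (EphB2 vs Ctrl), -1.0 to 0.01 (both against siRNA), -0.26 to 5.36 (both against EphB2) and -3.04 to 3.65 (interaction). They were -1.96 to 1.92, -0.32 to 0.78 and -1.65 to 2.23 for SPI1 (EphB2 vs Ctrl, both against siRNA, interaction), -0.43 to 0.21 for TMEM119 and -0.15 to 0.38 for PTPRC (ephrin-B1 siRNA vs Ctrl), -0.45 to 1.62 for P2RY12 (both against EphB2), and -0.78 to 0.08 for TREM2 and -0.2 to 0.0 for EFNB1 (interaction). Fitted values of SPI1, P2RY12 and ITGAM depend on the fit at such counts and are no bounds.

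With 2 to 18 TREM2 counts and 5 to 15 TMEM119 counts per library, the depth limits what can be seen for every marker but CSF1R.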
